A study of Mus musculus with 6 samples.

Results

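A set of 9 genes of lipid mediator metabolism was examined in mouse CD4+CD25+ T cells: Alox5, Alox5ap, Lta4h, Ltc4s, Ptgs1, Ptgs2, Hpgds, Pla2g7 and Mgst1. They were chosen by name for their pathway with earlier results of this same comparison in view, so their values below are a description and carry no test. Every probe set was taken whose platform annotation names 1 symbol that belongs to these 9. That gave 11 probe sets for 7 genes, out of 22626 probe sets and 12393 genes in all. No probe set was matched to Alox5 or Ptgs1, so neither was analysed here.

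Eicosanoids are signalling lipids made from arachidonic acid, which phospholipase A2 enzymes release from membranes. Alox5, held in place by its partner protein Alox5ap, starts the leukotriene branch. Lta4h then makes leukotriene B4, which attracts granulocytes, and Ltc4s adds glutathione to make leukotriene C4. The cyclooxygenases Ptgs1 and Ptgs2 start the prostaglandin branch, from which Hpgds makes prostaglandin D2. Pla2g7 is the secreted enzyme that inactivates platelet activating factor, and Mgst1 is a membrane glutathione transferase of the same protein superfamily as Alox5ap and Ltc4s. In blood and tissue several of these enzymes are known chiefly from myeloid cells and mast cells rather than from T cells. Lta4h, by contrast, was well above background in the wild type samples here.

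The study concerns the part of Hdac3, a histone deacetylase, in regulatory T cells. Total RNA was hybridised to 1 Affymetrix Mouse430a array per sample, with 3 samples from wild type mice and 3 from mice of the genotype HDAC3-fl/fl_FOXP3cre, called Hdac3 deleted here. Both groups have the C57BL6 background, and every sample held CD4+CD25+ cells, the surface markers used to gather regulatory T cells. The Cre is named for Foxp3, the gene that marks this T cell lineage. The wild type label names neither a Cre nor a floxed allele. Whether those mice carried either is not given, so both may differ between the groups too. Ages and sort purity are not given in the sources used here, and separate animals are not stated. The p-values below therefore reflect only how much these samples vary, and that variation may be technical. Label fields of the Hdac3 deleted samples disagree with their title and genotype: one names HDAC11 and the other reads HDACII. Values are log2 expression after robust multiarray average (RMA) normalization, shown per sample or as mean ± SD (n = 3), and each difference subtracts the wild type mean from the Hdac3 deleted mean.

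The arrays fell into 2 tight groups. Pearson correlation over probe sets was 0.996 to 0.998 within groups and 0.921 to 0.923 between them. Hdac3, the targeted gene, measured 9.07, 9.04 and 9.01 on the wild type arrays and 8.46, 8.51 and 8.50 on the Hdac3 deleted arrays, lower by 0.55 with no overlap. Because the sources do not place this probe set inside or outside the floxed segment, its level is no check of the deletion. Hdac11, named by the disagreeing label, went from 5.47 ± 0.063 to 4.89 ± 0.147, at background in the second group. The mean of the 4 CD3 genes was lower by 1.47 in Hdac3 deleted samples. Foxp3, the defining gene of the labelled cell type, lay at background in both groups, at 3.77 and 3.68. Background is taken as the range of 27 bacterial control probe sets, 2.37 to 5.16. Where one group lay in that range, a fold is given as "at least" and counted from its top, and where both did, no direction can be read.

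Of the 7 measured genes, 6 had all Hdac3 deleted samples above all wild type samples, and 1, Lta4h, had them all below. Over all genes the groups separated in that way in 24.3% upward and 43.1% downward, and since this contrast was known when the genes were chosen, nothing is read from the counts. The median difference of the 7 was 4.51, against -0.17 over all 12393 genes, or 2.95 and 0.00 when levels at background are raised to the top of its range. All 6 that were higher lay at background in wild type. In RNA from many cells, more cells that make a transcript and more transcript per cell cannot be told apart.

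Promoter windows of 3 of the 6 genes that were higher are shown first, with and without matches, to set their letters side by side. RefSeq start sites (GRCm38.p6) were found for 8 of the 9 genes, with none for Alox5ap, and the 250 bases before each start were searched on both strands. Capitals mark matches to GAGGAA, a core read by the myeloid factor PU.1, or to TTGCNNAA, a form read by C/EBP factors. Of the 9 windows, 4 lie inside the annotated span of their gene (Hpgds, Pla2g7, Ptgs1 and the second start of Mgst1) and were searched but not printed. The windows are chr6:138140277-138140526 on the plus strand for Mgst1, chr1:150099781-150100030 on the plus strand for Ptgs2 and chr11:50238533-50238782 on the minus strand for Ltc4s, each written 5′ to 3′ along the gene:
Mgst1: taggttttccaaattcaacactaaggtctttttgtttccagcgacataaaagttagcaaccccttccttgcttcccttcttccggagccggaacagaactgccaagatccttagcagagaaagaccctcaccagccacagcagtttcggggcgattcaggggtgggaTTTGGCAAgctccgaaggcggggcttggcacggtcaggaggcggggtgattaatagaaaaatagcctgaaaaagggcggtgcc
Ptgs2: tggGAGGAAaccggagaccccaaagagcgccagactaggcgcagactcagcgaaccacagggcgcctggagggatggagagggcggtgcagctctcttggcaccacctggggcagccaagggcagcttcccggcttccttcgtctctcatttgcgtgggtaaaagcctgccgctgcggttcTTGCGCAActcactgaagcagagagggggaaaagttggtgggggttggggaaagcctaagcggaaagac
Ltc4s: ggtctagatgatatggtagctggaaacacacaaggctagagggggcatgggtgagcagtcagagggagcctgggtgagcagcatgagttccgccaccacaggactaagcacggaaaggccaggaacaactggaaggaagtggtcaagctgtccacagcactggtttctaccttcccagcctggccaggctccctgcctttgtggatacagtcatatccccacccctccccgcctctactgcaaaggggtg

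The Ptgs2 window holds the palindrome TTGCGCAA, which begins 69 bases before the start, and GAGGAA 247 bases before it. In Hpgds the 2 matches begin 176 bases (C/EBP form) and 49 bases (GAGGAA) before the start. The first Mgst1 window has a C/EBP match 83 bases before its start, and the Ltc4s and Pla2g7 windows matched neither. By gene, GAGGAA was found for 6 of 8 (Alox5, Hpgds, Lta4h, Mgst1 at its second start, Ptgs1 and Ptgs2) and TTGCNNAA for 3 (Hpgds, Mgst1 and Ptgs2). Of the 6, Alox5 and Ptgs1 have no expression value here. Among all 32851 windows of the same length, 23.3% held GAGGAA and 9.56% held TTGCNNAA. Those shares are per window, while a gene counts if any of its starts matched. The motifs were chosen after values were seen, so no enrichment is read from these counts. Lta4h, which was lower, holds GAGGAA too, 126 bases before its start. The AP-1 form TGANTCA, the E-box CACGTG and TATAAA matched in none of the 8 genes and in 6.75%, 6.02% and 12.4% of all windows. A match here is a run of letters, not a shown binding site.

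**Figure D1:**
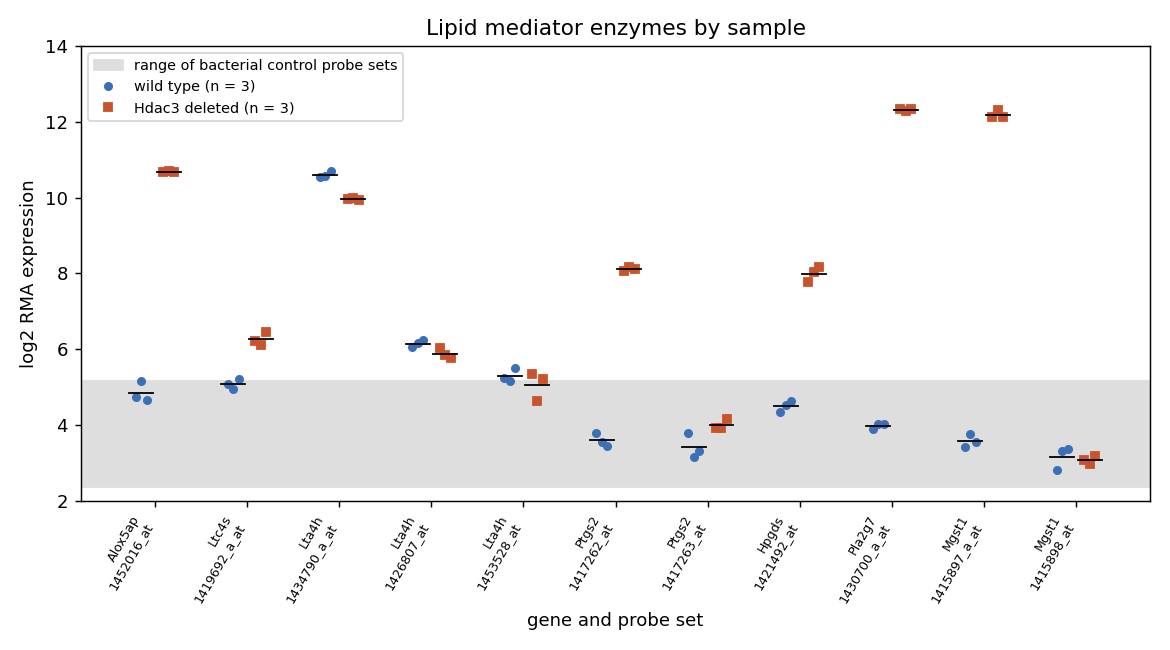
Log2 RMA expression of the 11 probe sets in each sample, with wild type as circles, Hdac3 deleted as squares, bars at the group means (n = 3) and the range of the bacterial controls, 2.37 to 5.16, in grey. Squares lie far above circles for Alox5ap, Ptgs2, Hpgds, Pla2g7 and Mgst1 in the probe set with the higher mean, while the second Ptgs2 and Mgst1 probe sets stay in the grey band.

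In the leukotriene branch the transcripts of the helper protein Alox5ap and of Ltc4s were higher, and that of the hydrolase Lta4h was lower by a smaller amount. Alox5ap (probe set 1452016_at; chr5:149265004-149288153) measured 4.72, 5.16 and 4.67 on the wild type arrays and 10.67, 10.70 and 10.67 on the Hdac3 deleted arrays. The wild type samples are at or next to background while the Hdac3 deleted samples lie close together far above it, at 10.7 ± 0.018, so the level was at least 46.1-fold higher. Its partner enzyme Alox5 was not analysed here, so the data give the transcript of the docking protein without that of the lipoxygenase it serves.

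Ltc4s (1419692_a_at; chr11:50236461-50238532), the leukotriene C4 synthase, measured 5.07, 4.94 and 5.21 without the deletion and 6.23, 6.10 and 6.44 with it. The groups do not overlap, but both lie low on the scale and the gap is small, at least 2.15-fold. Its difference of 1.19 was the smallest among the 6 genes that were higher, and 7.81% of all genes had a larger one.

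Lta4h (chr10:93453396-93484896) was the 1 measured enzyme of the set already well above background in wild type. Its brightest probe set, 1434790_a_at, gave 10.54, 10.56 and 10.69 on the wild type arrays and 9.96, 10.00 and 9.94 on the Hdac3 deleted arrays, 1.55-fold lower. The groups do not overlap, and the difference of -0.63 compares with -1.47 for the CD3 genes and -0.17 for the median gene in the same samples. Median centring made it -0.79 and cyclic loess -0.42, and the median over all genes moved to -0.33 and 0.00. The other Lta4h probe sets were dim: 1426807_at gave 6.06, 6.16 and 6.23 against 6.02, 5.86 and 5.75, and 1453528_at gave 5.24, 5.16 and 5.49 against 5.33, 4.63 and 5.22. The first of these separated the groups by -0.27 and the second overlapped, and with cyclic loess they differed by -0.09 and -0.05.

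In the prostaglandin branch both measured enzymes were higher. Ptgs2 (chr1:150100031-150108234), the inducible cyclooxygenase, measured 3.80, 3.55 and 3.45 on the wild type arrays and 8.05, 8.17 and 8.11 on the Hdac3 deleted arrays with probe set 1417262_at, at least 7.75-fold higher. A second probe set, 1417263_at, gave 3.79, 3.16 and 3.32 against 3.91, 3.92 and 4.14. Those values all lie in the background range, so the Ptgs2 difference rests on 1 of its 2 probe sets.

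Hpgds (1421492_at; chr6:65117293-65144981), the haematopoietic prostaglandin D synthase, measured 4.35, 4.53 and 4.63 on the wild type arrays and 7.77, 8.02 and 8.16 on the Hdac3 deleted arrays, at least 7.10-fold higher. Its Hdac3 deleted samples spread most among the 7 brightest probe sets in that group, with an SD of 0.194, which is small beside the difference of 3.48.

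Platelet activating factor hydrolase and the glutathione transferase had the largest differences of the set. Pla2g7 (1430700_a_at; chr17:43567994-43612202) measured 3.88, 4.01 and 4.01 on the wild type arrays and 12.33, 12.29 and 12.33 on the Hdac3 deleted arrays, at least 143-fold higher. Mgst1 (chr6:138140527-138156755) measured 3.42, 3.75 and 3.55 on the wild type arrays and 12.13, 12.30 and 12.11 on the Hdac3 deleted arrays with probe set 1415897_a_at, at least 130-fold higher. Both went from the middle of the background range to the upper end of the scale in every Hdac3 deleted sample. On the measured difference they stood 9th and 6th of all genes, at 8.35 and 8.61, although genes that start at background have no true order. The second Mgst1 probe set, 1415898_at, gave 2.80, 3.30 and 3.38 against 3.07, 2.97 and 3.17 and so stayed at background in both groups.

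**Figure D2:**
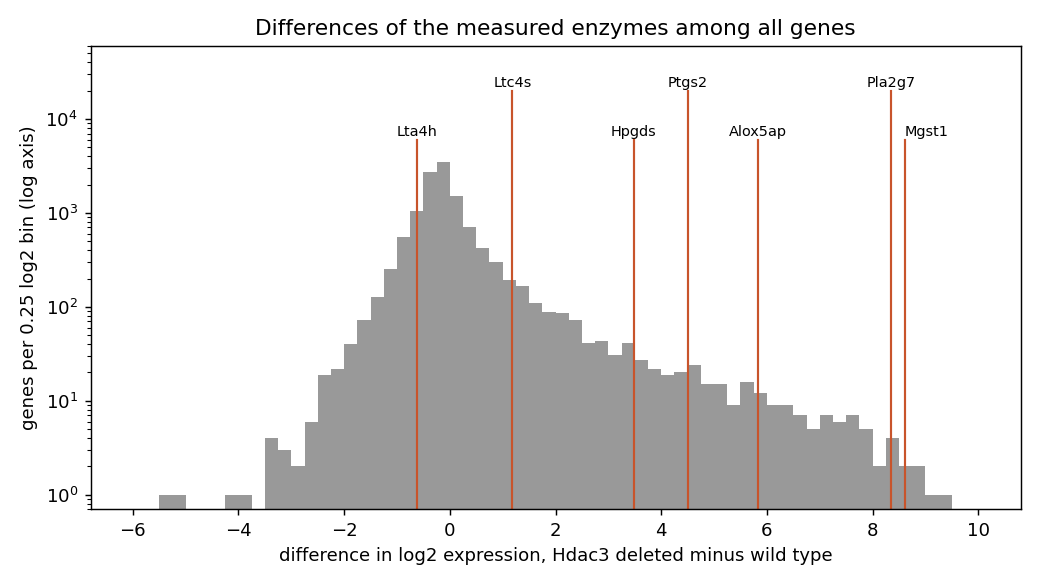
Number of genes (log axis) by difference in log2 expression, Hdac3 deleted minus wild type, in bins of 0.25, with lines at the 7 measured enzymes. Lta4h, at -0.63, lies within the bulk of all genes, and Pla2g7 and Mgst1, at 8.35 and 8.61, lie near the upper end.

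Genes of other cell types moved with these enzymes, and their part in the result was not tested. Of 14 measured macrophage markers 13 rose (limma adjusted p under 0.05 and at least 2-fold, the call rule from here on), with a median difference of 7.17, and their summed signal, log2 values turned back to linear units and added, went from 517 to 538 array units on the wild type arrays to 88668 to 90942 on the Hdac3 deleted arrays. By that rule 9.04% of all 12393 genes were called higher and 4.46% lower. The receptor gene Csf1r went from 6.66 to 14.20, while Vsig4 lay at background in both groups. Of 13 neutrophil markers 12 rose, with a median of 6.41 and a summed signal of 349 to 474 and then 41369 to 42251 units. The exception, Cxcr2, went from 4.74, at background, to 5.32, at least 1.12-fold higher and not called. With levels at background raised to the top of its range the list medians were 6.92 and 5.94. Of the 6 enzymes that were higher, Pla2g7 and Mgst1 lie above both medians on this bounded scale, at 7.16 and 7.02, and Alox5ap (5.53), Ptgs2 (2.95), Hpgds (2.83) and Ltc4s, the smallest, below both.

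Mast cells are a known source of Hpgds, Ltc4s and Alox5ap. The counts that follow stand beside the same shares of all genes, 9.04% called higher and 4.46% lower. Of 10 mast cell markers 2 rose, Kit (at least 2.08-fold) and Cpa3 (at least 1.74-fold), both also found in progenitors. Hdc, the histidine decarboxylase of mast cells and basophils, went from 5.26 ± 0.388 to 5.92 ± 0.136 without overlap and short of 2-fold (limma adjusted p = 0.0184), and Gata2 differed by -0.12. The other 6 lay at background in both groups: the receptor chains Ms4a2 and Fcer1a and the proteases Cma1, Mcpt4, Tpsb2 and Tpsab1. The list summed to 250 to 294 units for wild type and, for Hdac3 deleted samples, 361 to 402. Of the eosinophil granule genes, Prg2 was at least 9.74-fold and Epx at least 4.29-fold higher, while Prg3 was at least 1.16-fold higher and not called. In all, 4 of the 6 eosinophil markers measured were called higher. Of these, Siglecf lay at background in both groups and Ccr3 was at least 1.08-fold higher. Il5ra, not called, lay at background in both groups. With levels at background raised to the top of its range, the median of the eosinophil list was 0.16. That list summed to 85.7 to 107 and 550 to 677 units. The basophil protease Mcpt8 was at least 3.00-fold higher and Il4, the other basophil marker measured, differed by 0.01, with a sum of 60.3 to 66.7 and 144 to 155 units. Of 6 platelet markers 2 were called higher, Pf4 at least 2.78-fold and Ppbp, which lay at background in both groups, and the sums were 291 to 334 and 380 to 428 units. Of 5 dendritic cell markers 2 rose, Itgax and Batf3, while Xcr1 and Zbtb46 lay at background, with sums of 139 to 149 and 2029 to 2179 units. Of 5 B cell markers Cd79b rose 2.01-fold and Ms4a1, Pax5 and Blk lay at background, while Cd79a overlapped at 5.48 and 5.21, with sums of 261 to 295 and 393 to 441 units. All 9 T cell markers were lower and 8 were called, with Zap70 just short of 2-fold, and their sum went from 33810 to 35843 down to 13469 to 13646 units. Of 5 regulatory T cell markers Ikzf2 fell. Il2ra, which encodes CD25, was higher by 0.71 (limma adjusted p = 2.67e-05) and Tnfrsf18 differed by -0.86, both short of 2-fold, and Ctla4 differed by 0.07. The list summed to 6537 to 6798 and 5414 to 5590 units.

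**Figure D3:**
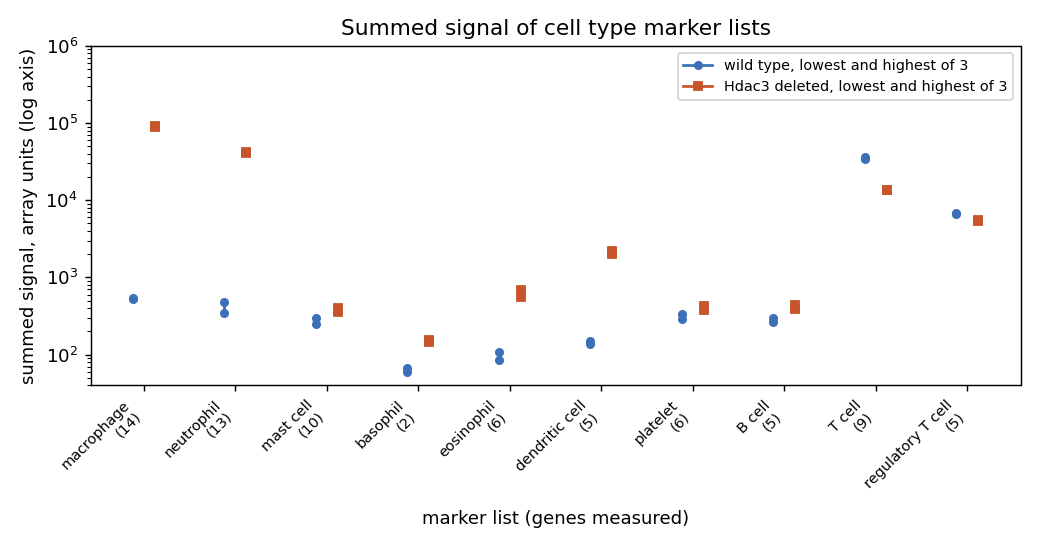
Summed array signal (log axis) of each cell type marker list, with the lowest and highest of 3 samples joined per group and the number of genes measured in brackets. The macrophage sum rises from 517 to 538 units for wild type to 88668 to 90942 units in Hdac3 deleted samples. The mast cell sums, 250 to 294 and 361 to 402 units, differ less and do not overlap. Of the 10 mast cell genes, 8 lay at background in wild type and 6 in both groups, so these sums hold much background signal.

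The other genes of these pathways were taken from a list of 69, of which 57 were measured. The list was drawn up with earlier results of these data known. Its counts, and those of its roles below, are therefore a description and no independent support. Of the 57, 13 rose and 4 fell, or 22.8% and 7.02%, where 9.04% and 4.46% of all 12393 genes were called in those directions. The background share itself moves with scaling: 66.9% of all called genes were higher, which became 53.2% when arrays were median centred and 79.1% after cyclic loess, while the pathway counts became 13 and 5, and 14 and 3. The median difference over the 57 was -0.05, close to -0.17 for all genes, and 40 of the 57 were not called. By the limma adjusted p alone 23 passed upward and 17 downward, where 22.4% and 38.8% of all genes did. The counts of each role below stand beside these shares of all genes under the same rule. Of the 13 that rose, 7 started at background in wild type, and 16 of the 57 lay at background in both groups.

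Of 11 phospholipase A2 genes 3 rose and none fell under the call rule, with 4 upward and 2 downward passing the limma adjusted p alone. Pla2g4a, the cytosolic enzyme that selects arachidonic acid, measured 3.65, 3.94 and 3.97 on the wild type arrays and 9.45, 9.47 and 9.38 on the Hdac3 deleted arrays, at least 19.4-fold higher (limma adjusted p = 2.45e-08). The lysosomal enzyme gene Pla2g15 rose from 6.23 ± 0.128 to 11.1 ± 0.075, and Pla2g2d, a secreted form, was at least 4.33-fold higher. Second probe sets of Pla2g15 and Pla2g2d were also higher, at least 8.46-fold and 3.40-fold. Pla2g6, a calcium-independent form, differed by 0.40, under the 2-fold limit.

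Among other lipoxygenase and leukotriene genes 3 of 13 rose and 2 fell, with 3 upward and 5 downward by the adjusted p alone. Alox15, which makes hydroxy fatty acids and takes part in lipoxin synthesis, measured 4.59, 4.52 and 4.24 on the wild type arrays and 7.39, 7.14 and 7.19 on the Hdac3 deleted arrays, at least 4.24-fold higher (limma adjusted p = 1.23e-06). Cyp4f18, which breaks down leukotriene B4 in mouse neutrophils, was at least 12.2-fold higher, and Ggt5, which takes the glutamate from leukotriene C4, rose 3.91-fold, with a second probe set at least 1.93-fold higher. Mgst2, a glutathione transferase that can also make leukotriene C4, went the other way to Mgst1 and Ltc4s, from 11.12 ± 0.022 to 9.83 ± 0.065, a fall of 1.29 (SE 0.056, limma adjusted p = 1.88e-06). That is near the 1.47 by which the CD3 genes were lower, and its wild type level was well above background. Alox8 fell by 1.66 as measured but only left the top of the background range, at least 1.04-fold lower. Cotl1, an actin binding protein that also binds Alox5, differed by -0.42, and by -0.20 with cyclic loess.

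The prostanoid list, downstream of Ptgs2, had 5 of 10 genes called higher and none called lower, with 5 upward and 4 downward by the adjusted p alone. Tbxas1, the thromboxane synthase of platelets and macrophages, measured 5.84, 6.03 and 5.23 on the wild type arrays and 9.75, 9.64 and 9.59 on the Hdac3 deleted arrays, 15.5-fold higher (limma adjusted p = 3.28e-06). Hpgd, which inactivates prostaglandins, was at least 23.6-fold higher (limma adjusted p = 1.06e-08), and Ptgr1, which reduces prostaglandin and leukotriene B4 products, at least 7.61-fold. A second Hpgd probe set was at least 1.64-fold higher. Prxl2b, a prostaglandin F synthase, rose 7.90-fold and Ptgis, the prostacyclin synthase, 2.81-fold. The prostaglandin E synthase gene Ptges lay at background in both groups and Ptges2 differed by -0.31, and by -0.14 with cyclic loess. Ptgds, the other prostaglandin D synthase, differed by -0.43 (limma adjusted p = 0.00228), opposite in direction to Hpgds. Its levels, 5.77 and 5.34, lay just above background, and with cyclic loess it differed by -0.25. Cbr1, a carbonyl reductase that converts prostaglandin E2, went from 9.63 ± 0.023 to 8.63 ± 0.076 (limma adjusted p = 8.72e-06), just short of 2-fold.

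None of the 6 platelet activating factor genes beside Pla2g7 passed the call rule. By the adjusted p alone 3 passed upward and 2 downward. Lpcat2 and Lpcat4, also on this list, were not measured, so nothing is known of them here. Lpcat3, a lysophospholipid acyltransferase, differed by 0.93 (limma adjusted p = 1.36e-05) and Pafah2, an intracellular hydrolase of the same lipid, by 0.73. Lpcat1, which can make platelet activating factor, differed by 0.31 and Pafah1b1, a subunit of the brain-type hydrolase, by -0.40. The receptor gene for platelet activating factor, Ptafr, lay at background in both groups, at 4.12 and 3.97.

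Of 17 receptor and transporter genes 2 rose and 2 fell, with 8 upward and 4 downward by the adjusted p alone. Fpr2, a receptor for lipoxin and formyl peptides on phagocytes, measured 5.18, 4.32 and 4.04 on the wild type arrays and 11.61, 11.58 and 11.55 on the Hdac3 deleted arrays, at least 85.9-fold higher (limma adjusted p = 9.70e-07). Ltb4r1, the high-affinity leukotriene B4 receptor, rose from 5.95 ± 0.095 to 7.71 ± 0.165. The 2 that fell were bright in wild type: Ptger4, a prostaglandin E2 receptor, fell by 1.12 and Tbxa2r, the thromboxane receptor, by 1.27, beside 1.47 for the CD3 genes. A second Ptger4 probe set fell by 1.27, but Ptger4 missed the call rule with cyclic loess. Ptger2, the other bright prostaglandin E2 receptor, differed by 0.29. The prostaglandin D2 receptors Ptgdr and Ptgdr2 differed by -0.33 and -0.13, with Ptgdr2 at 0.05 with cyclic loess, while Hpgds, which makes their ligand, was higher.

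**Figure D4:**
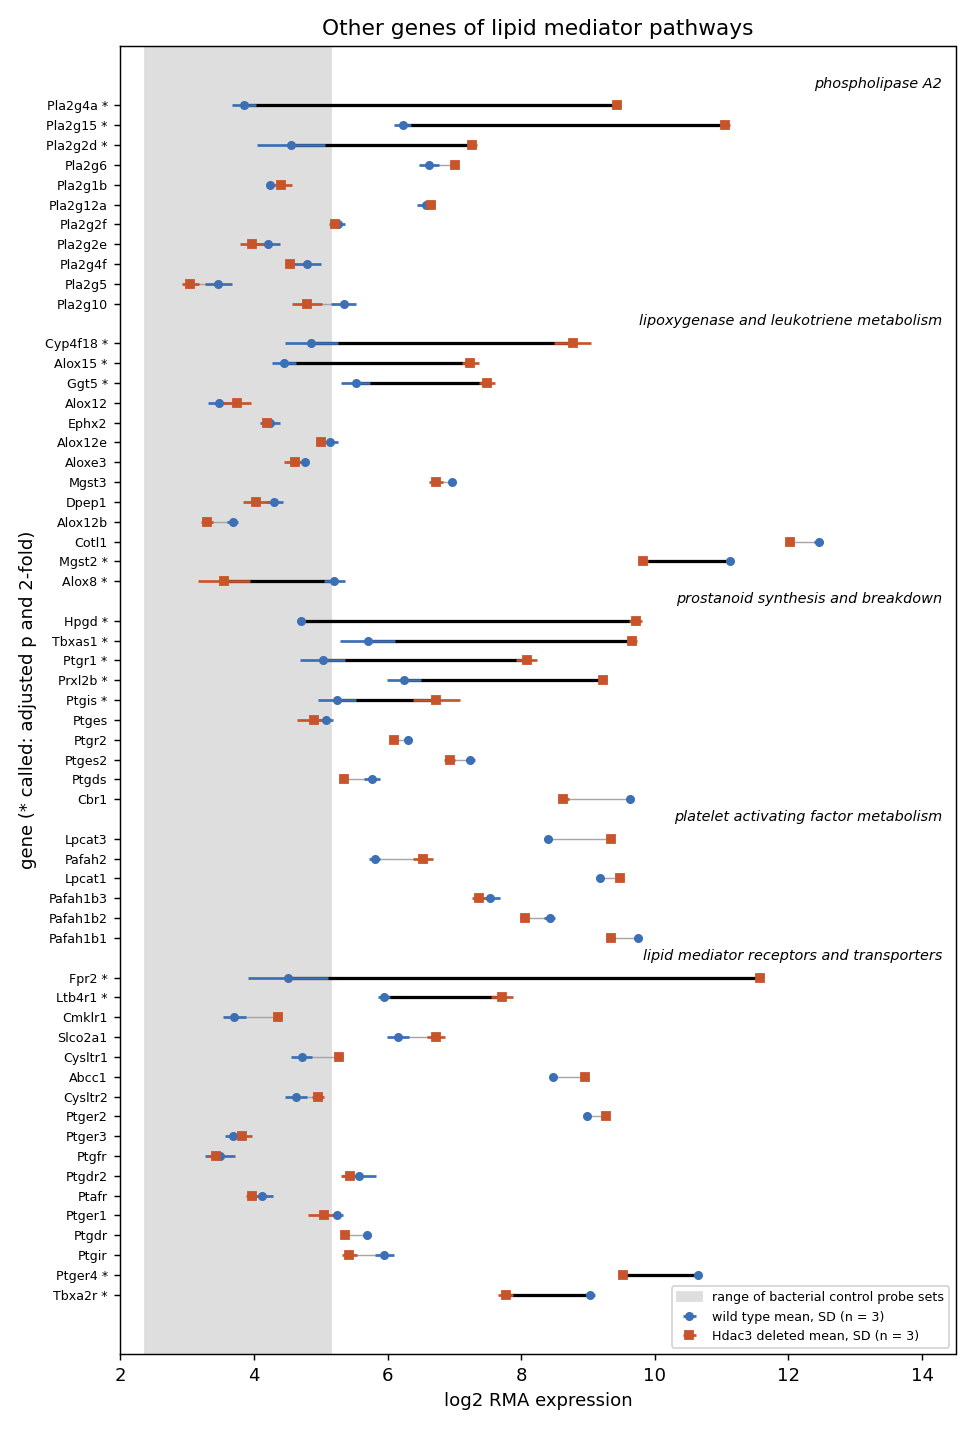
Mean log2 RMA expression with SD (n = 3) of the 57 other pathway genes in wild type (circles) and Hdac3 deleted samples (squares), by role, with the range of bacterial controls in grey and heavy lines and asterisks for called genes. Fpr2, Pla2g4a and Hpgd start in the grey band, while the called falls of Mgst2, Ptger4 and Tbxa2r start well above it.

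For each measured enzyme the 2 genes with the most similar profile were found by Euclidean distance over the 6 samples, each gene centred on its own mean. Because the samples are 3 against 3, genes with a like group difference lie close. For the 6 enzymes at background in wild type the distances use levels that carry no order, so which gene comes nearest is not settled. Counted from the top of the background range, Mgst1 differed by 7.02, Pla2g7 by 7.16 and C1qb by 8.64, so C1qb is then farther from Mgst1 than Pla2g7 is. On the deposited values the order was as follows. Mgst1 was nearest to the complement gene C1qb (distance 0.157) and then to Pla2g7 (0.397). Pla2g7 was nearest to H2-Ab1, an MHC class II chain (0.115), and Ubd (0.364). Alox5ap was nearest to the macrophage marker Cd68 (0.331) and to Adgre4 (0.338), Ptgs2 to Pilrb1 (0.118) and the cytokine receptor gene Csf2ra (0.177), and Hpgds to Lrg1 (0.224) and Gdpd1 (0.262). Ltc4s was nearest to Ndc1 (0.164) and Mfsd10 (0.229). Lta4h, above background in both groups, was nearest to Cyth1 (0.035) and the ribosomal protein gene Rpl7 (0.048), which were lower by a like amount.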

How the data were processed

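The 6 samples were grouped by their titles. The authors normalised the arrays by RMA with MAYDAY 2.12 and used Student's test, per the labels' design text. The deposited unit is log2 expression for each probe set. RMA scales arrays to each other, so a change in total RNA per cell is not seen and a large one-sided change shifts other genes. Array medians still differed: the wild type arrays had 6.28 to 6.29 and the Hdac3 deleted arrays 6.43 to 6.47. The number of arrays limits the precision.

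Of 22690 probe sets, 64 controls were left out. By the platform annotation 20380 had 1 symbol, 691 several and 1555 none, and 20351 matched RefSeq (GRCm38.p6) with no symbol changed. Each gene was read from its brightest probe set, by the mean of the 6 samples. Differences were fitted with limma 3.58.1 (lmFit and eBayes, R 4.3.3), two-sided, with Benjamini-Hochberg adjustment over all 12393 genes, and called at adjusted p under 0.05 and 2-fold. The fit was tested on simulated data. Sequences and plots used Python 3.11.15, pandas 2.3.3 and matplotlib 3.10.9. Genes named beyond the 9 were all called pathway genes, the 2 brightest of each role and the 2 nearest profiles. Lpcat3, Pafah2, Ptafr, Ptgds, Ptges, Ptges2, Ptgdr, Ptgdr2, the motifs and the printed promoters were chosen after values were seen. Other normalizations, filters, probe set rules, the replicate block and leaving out each sample were tried, with effects given in the closing section. The members and lists were chosen with earlier results of these data known.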

Additional observations from a re-analysis of the deposited data

How the results depend on the processing

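The pathway counts of 13 higher and 4 lower were within 1.5 times of these under the methods' t-test, the replicate block (13 and 4), another quantile normalization, median centring, cyclic loess, a trended robust prior, removal of the dimmest probe sets, either probe set rule, and leaving out each sample (13 and 4 to 5). With no fold threshold they were 23 and 17, and 7588 genes were called in all, 36.6% of them higher, against 1673 with 66.9% higher. Under cyclic loess Ptger4 was lost and Lpcat3 gained. Alox8 was not tested without the dimmest probe sets, and Pla2g4a was not tested without probe sets that can match several transcripts. Cbr1 was gained with another quantile normalization, with median centring and without wild type replicate 2, Hdac3 deleted replicate 1 or 3. Deviations of same-numbered samples correlated at 0.09, 0.06 and -0.20 over genes, and those of differently numbered samples at -0.25 to 0.22. With 3 samples per group these values cannot settle whether replicate numbers mark pairs.

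The differences of the 7 enzymes kept their sign in all 70 alternative values, and 56 moved by less than the spread between replicates. For the enzymes that were higher the kept sign is no test, because these settings shift a difference too little to reverse it. With other scalings or a sample left out, Pla2g7 ranged from 8.19 to 8.52 and Ltc4s, the smallest, from 1.03 to 1.37. Lta4h ranged from -0.79 to -0.42. Averaging the probe sets of a gene, Mgst1 was 4.26, Ptgs2 2.54 and Lta4h -0.38, since dim probe sets then count equally. The 70 values do not include the removal of probe sets that can match several transcripts. That rule would leave Pla2g7 and Ltc4s without a probe set. It would leave Mgst1 only 1415898_at, which differed by -0.09 with both groups at background. Levels inside 2.37 to 5.16 carry no order.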
